A study of Mus musculus with 7 samples.

Results

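The genes described here are the 7 MHC class II antigen presentation genes H2-Aa, H2-Ab1, H2-Eb1, Cd74, Ciita, H2-DMa and H2-DMb1, taken by symbol from the 53819 genes of the deposited table, which held all 7. They were measured by RNA sequencing of quadriceps, the large thigh muscle, in 7 libraries. All mice were wild-type male C57BL/6J, an inbred laboratory strain, and received 200 µl of an AAV8 vector, a replication-deficient adeno-associated virus with a tropism for the liver, into the tail vein when 8 weeks old. Quadriceps was collected 54 days after injection. In 4 libraries (AAV8-Null, the controls) the vector was AAV8-Alb-Null, and in 3 (AAV8-IGFBP1) it was AAV8-Alb-IGFBP1. Both groups therefore carried viral vector, with no uninjected group, and the labels do not spell out the Alb in the vectors' names. They number the replicates without saying whether these are different animals. The p-values below therefore reflect the spread among these samples only, part of which may be technical.

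MHC class II molecules are pairs of an alpha and a beta chain that carry peptides from ingested protein to the surface of dendritic cells, macrophages and B cells, where CD4 T cells read them. The invariant chain, encoded by Cd74, fills the groove of a new class II molecule until endosomal proteases trim it away, and the DM heterodimer then exchanges the last invariant chain fragment for peptide. CIITA, encoded by Ciita, is the coactivator that switches the whole group on. It binds no DNA itself and is recruited by the factors that sit on the X and Y boxes of class II promoters, and interferon gamma induces it in many cell types. Resting muscle fibres make little class II, so most of this RNA in healthy muscle is generally attributed to the immune cells between the fibres.

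Library totals ranged from 38947453 to 51210360 counts. The muscle markers Ckm, Acta1, Myh4, Myh2, Myh1, Tnnt3, Mylpf and Pvalb summed to 131740 to 160410 CPM (counts relative to the library total, scaled by TMM) in all 7 libraries. Igfbp1, which encodes the IGF-binding protein named in the vector, had 202, 1425 and 142 counts in AAV8-IGFBP1 replicates 1, 2 and 3, against 8 counts in AAV8-Null replicate 4 and 0 in the other AAV8-Null libraries (adjusted p = 0.138 in edgeR). AAV8-IGFBP1 replicate 2 thus held the most Igfbp1 RNA, and it also held the largest share of 18S ribosomal RNA (Rn18s, 2.29% of counts against 0.593% to 1.52% in the other 6) and the highest summed adipocyte markers (1463 CPM against 240.5 to 480.9). Every one of the 7 class II genes was highest in that library, so the log2 fold change of each is also given without it.

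All 7 class II genes had a higher mean in AAV8-IGFBP1 than in AAV8-Null, by a median log2 fold change of 0.50, and none passed the test. The median over all 14935 genes tested was -0.00065. By edgeR's quasi-likelihood test with Benjamini-Hochberg adjustment over all genes tested, 0 of the 7 reached an adjusted p under 0.05, where 0.556% of all genes did. At an unadjusted p under 0.05 the count was 0 with edgeR, 0 with limma-voom and 1 (H2-Aa) with DESeq2, where 12.6% of all genes had such a p in edgeR, and after adjustment it was 0 with each tool. The log2 fold change lay above 0 for 7 of 7, as for 49.9% of all genes. The groups did not separate for any of the 7, while they did for 12.3% of all genes, 6.33% with every AAV8-IGFBP1 library above and 6.01% with every one below. In a bulk sample, more class II cells and more class II RNA per cell cannot be told apart. Without AAV8-IGFBP1 replicate 2 the median was 0.13 and 6 of 7 lay above 0.

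CIITA is known to act at X and Y boxes, so promoters are printed for the members whose promoter held a match and for the copy H2-DMb2. RefSeq promoter entries (GRCm38.p6) were found for 4 of the 7 members. The 250 bases before each start were searched on both strands for ACNGATG, a core of the X box to which the RFX complex binds, and TGATTGG, a core of the Y box to which NF-Y binds. No matches found in the promoters below overlapped. The sequences are the 150 bases before the start, 5′ to 3′ on the gene's own strand, with matches in capitals. They cover chr17:34287824-34287973 (minus strand), chr17:34305717-34305866 (plus), chr17:34153041-34153190 (plus) and chr17:34145099-34145248 (plus).
H2-Aa: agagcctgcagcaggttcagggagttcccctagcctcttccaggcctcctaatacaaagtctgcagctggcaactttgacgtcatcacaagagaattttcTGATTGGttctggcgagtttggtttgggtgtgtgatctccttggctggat
H2-Eb1: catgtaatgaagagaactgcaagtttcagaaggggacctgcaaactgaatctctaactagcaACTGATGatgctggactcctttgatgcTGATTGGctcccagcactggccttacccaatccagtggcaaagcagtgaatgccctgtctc
H2-DMb1: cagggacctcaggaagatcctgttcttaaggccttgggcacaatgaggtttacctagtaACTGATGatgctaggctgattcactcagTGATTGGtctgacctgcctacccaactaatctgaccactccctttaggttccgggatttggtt
H2-DMb2: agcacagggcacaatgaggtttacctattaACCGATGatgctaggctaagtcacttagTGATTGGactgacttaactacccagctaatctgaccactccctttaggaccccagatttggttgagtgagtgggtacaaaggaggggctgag
On chromosome 17, H2-Ab1, H2-Aa and H2-Eb1 are neighbours, as are H2-DMa, H2-DMb2 and H2-DMb1, while Ciita is on chromosome 16. H2-Eb1 held ACTGATG at positions -88 to -82 from the start and TGATTGG at -61 to -55, with 20 bases between them. H2-DMb1 held ACTGATG at -91 to -85 and TGATTGG at -63 to -57, with 21 bases between, and H2-DMb2 held ACCGATG and TGATTGG with the same 21. H2-Aa held TGATTGG at -50 to -44, and its only X core match was on the other strand at -232 to -226, outside the printed window. Neither of the 2 listed starts of H2-DMa held either core, which says only that these letters are not in those windows. The same limit holds for the X core in the printed bases of H2-Aa. Of 32851 promoter entries of the same length, 8.31% held the X core, 7.23% the Y core and 0.588% both.

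Among the classical chains, H2-Aa encodes the alpha chain and H2-Ab1 the beta chain of the class II molecule I-A. H2-Aa lay at 11.01, 17.4, 11.6 and 10.5 CPM in AAV8-Null replicates 1 to 4 and at 15.997, 25.9 and 12.0 CPM in AAV8-IGFBP1 replicates 1 to 3. The AAV8-Null library numbered 2 was above 2 of the 3 AAV8-IGFBP1 libraries, so the groups overlapped. The means were 12.6 ± 3.20 (SD, n = 4) and 17.9 ± 7.16 CPM (SD, n = 3), a log2 fold change of 0.50 (SE 0.30, adjusted p = 0.563 in edgeR). H2-Ab1 lay at 15.9, 20.4, 18.1 and 13.2 CPM in AAV8-Null and at 21.5, 40.5 and 15.8 CPM in AAV8-IGFBP1. Here replicate 1 of AAV8-IGFBP1 was just above the highest control and replicate 3 was below 3 of the 4 controls. The log2 fold change was 0.61 (SE 0.34, adjusted p = 0.532 in edgeR), and it was 0.14 for H2-Ab1 and 0.15 for H2-Aa without AAV8-IGFBP1 replicate 2.

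H2-Eb1 encodes the beta chain of the other class II molecule, I-E. It lay at 11.1, 15.8, 12.4 and 10.0 CPM in AAV8-Null and at 15.2, 30.1 and 11.8 CPM in AAV8-IGFBP1, with the highest control above AAV8-IGFBP1 replicate 1. Its log2 fold change of 0.62 (SE 0.35, adjusted p = 0.535 in edgeR) was the highest point estimate of the 7 and was 0.13 without AAV8-IGFBP1 replicate 2. C57BL/6J mice are known to lack the I-E alpha chain because of a deletion at H2-Ea, so the H2-Eb1 chain has no partner in this strain. H2-Ea had 0 counts in all 7 libraries, which allows up to 0.0580 to 0.0785 CPM per library from counting error alone. H2-Eb1 RNA was thus measured in 7 libraries where H2-Ea RNA was not detected.

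Cd74, the invariant chain gene, had the most RNA of the group per length of transcript. It lay at 36.3, 54.7, 44.6 and 31.1 CPM in AAV8-Null and at 47.6, 82.1 and 36.8 CPM in AAV8-IGFBP1, again with AAV8-Null replicate 2 above 2 of the 3 AAV8-IGFBP1 libraries. The log2 fold change was 0.41 (SE 0.33, adjusted p = 0.676 in edgeR) and 0.02 without AAV8-IGFBP1 replicate 2. Scaled to transcript length, Cd74 had 31.0 ± 7.67 CPM per kilobase in AAV8-Null (SD, n = 4), followed by H2-Ab1 at 16.1 ± 2.90, H2-Aa at 12.9 ± 3.27 and H2-Eb1 at 7.39 ± 1.51. H2-DMa followed at 1.16 ± 0.245, H2-DMb1 at 1.00 ± 0.198 and Ciita at 0.190 ± 0.0453 CPM per kilobase. The ranges over the control libraries overlapped for H2-Ab1 with H2-Aa and for H2-DMa with H2-DMb1, and every other pair of neighbours in this order was apart.

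The peptide exchange heterodimer is encoded by H2-DMa and H2-DMb1. H2-DMa lay at 1.61, 2.42, 1.57 and 2.09 CPM in AAV8-Null and at 2.47, 3.60 and 1.70 CPM in AAV8-IGFBP1, with a log2 fold change of 0.43 (SE 0.26, adjusted p = 0.556 in edgeR). H2-DMb1 lay at 1.23, 1.76, 1.49 and 1.14 CPM in AAV8-Null and at 1.93, 2.78 and 1.31 CPM in AAV8-IGFBP1. Its log2 fold change was 0.51 (SE 0.27) with the lowest adjusted p of the 7 (adjusted p = 0.483 in edgeR). Without AAV8-IGFBP1 replicate 2 the values were 0.12 for H2-DMa and 0.20 for H2-DMb1. For both genes, AAV8-IGFBP1 replicates 1 and 2 were above every control library and replicate 3 lay inside the control range. H2-DMb1 values are uncertain because its near-identical copy H2-DMb2 shares reads with it. The deposited estimates of the 2 genes were fractional, and their sum was a whole number in 7 of 7 libraries (tolerance 0.002), 72, 99, 58 and 51 in AAV8-Null and 103, 139 and 69 in AAV8-IGFBP1. With the copies summed, an alternative chosen after seeing the data, the log2 fold change was 0.63 (SE 0.27, adjusted p = 0.373 in edgeR).

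Ciita, the coactivator gene, had the lowest point estimate of the 7. Its counts were 39, 32, 41 and 31 in AAV8-Null and 32, 61 and 26 in AAV8-IGFBP1, or 0.775, 0.618, 1.07 and 0.754 CPM and 0.695, 1.47 and 0.576 CPM. AAV8-IGFBP1 replicate 2 was again the highest, but the lowest of all 7 libraries was AAV8-IGFBP1 replicate 3. AAV8-Null replicate 2, the control with the highest H2-Aa, H2-Ab1, H2-Eb1, Cd74, H2-DMa and H2-DMb1, was the control with the lowest Ciita. The log2 fold change was 0.19 (SE 0.36, adjusted p = 0.880 in edgeR), and -0.33 without AAV8-IGFBP1 replicate 2. Counting error alone is wide at this depth: the exact 95% Poisson interval ran from 16.98 to 38.1 counts around the count of 26 and from 46.7 to 78.4 around 61.

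**Figure D1:**
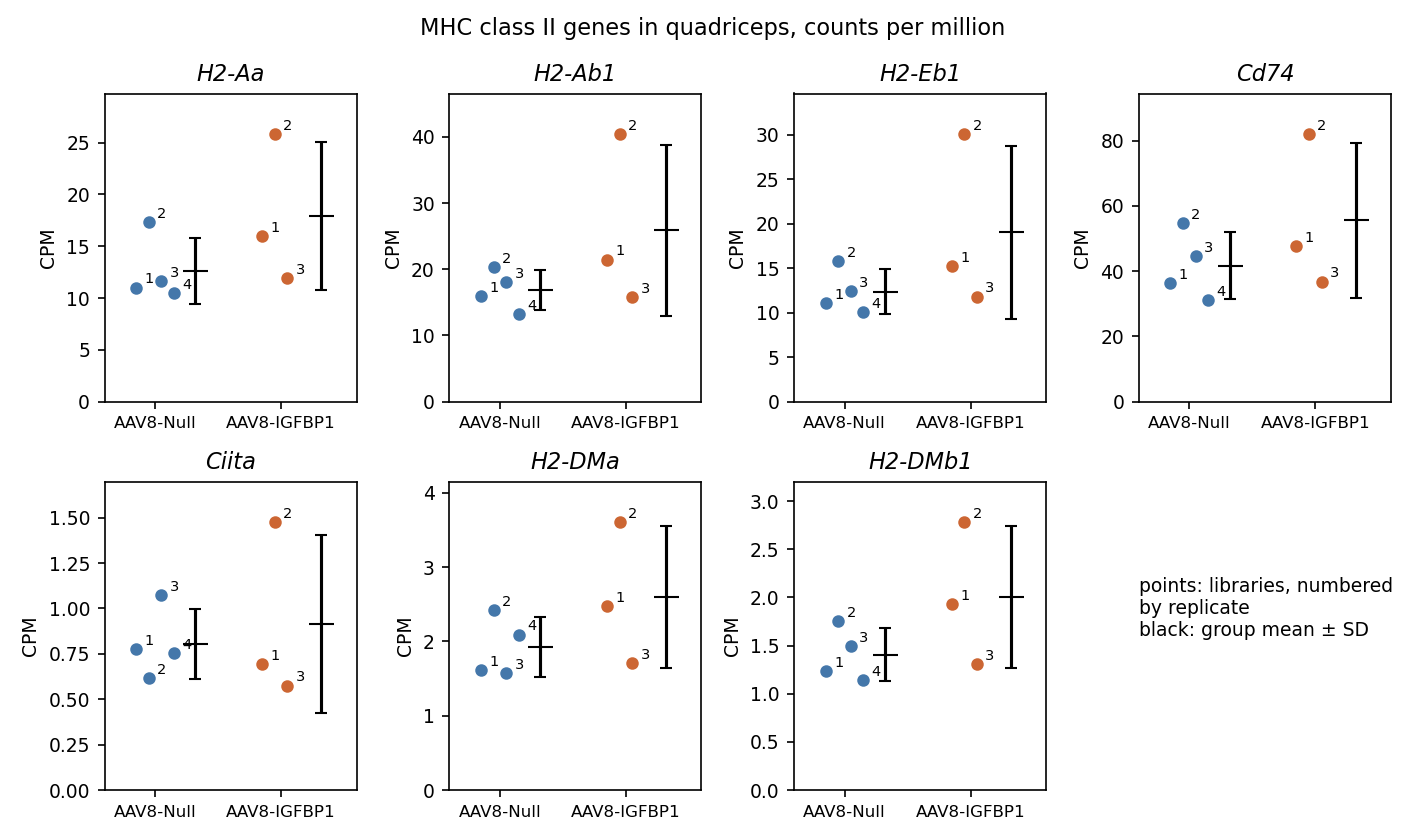
CPM of each class II gene (vertical axis, from 0) in the 4 AAV8-Null and 3 AAV8-IGFBP1 libraries, each point a library numbered by replicate, with the group mean ± SD in black. AAV8-IGFBP1 replicate 2 is the highest point in all 7 panels, and the groups overlap in each.

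**Figure D2:**
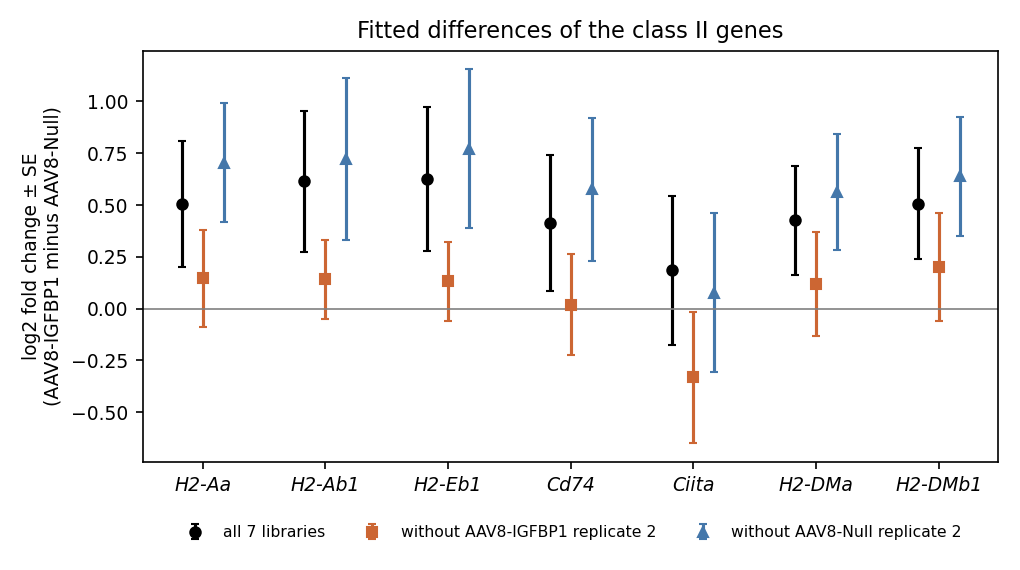
Fitted log2 fold change with its SE (vertical axis) for each class II gene in all 7 libraries, without AAV8-IGFBP1 replicate 2, and without AAV8-Null replicate 2. The values without AAV8-IGFBP1 replicate 2 lie between -0.33 (Ciita) and 0.20 (H2-DMb1).

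The limma-voom 95% intervals of the differences were wide and all held 0. They ran from -0.17 to 1.19 on the log2 scale for H2-Eb1, from -0.16 to 1.04 for H2-Aa, from -0.26 to 0.98 for Cd74 and from -0.70 to 0.88 for Ciita.

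Within a library the chain genes and Cd74 kept similar proportions, and the proportion of Ciita ranged more widely. Across the 7 libraries the CPM of the members differed by 2.29-fold (H2-DMa) to 3.06-fold (H2-Ab1) between the highest and the lowest library. Counted per 100 Cd74 counts, H2-Aa ranged from 26.1 to 33.6, H2-Ab1 from 37.2 to 49.3, H2-Eb1 from 27.9 to 36.7 and H2-DMb1 from 3.22 to 4.06, which is a 1.26-fold to 1.32-fold range. H2-DMa ranged from 3.53 to 6.73 (1.91-fold) and Ciita from 1.13 to 2.43 (2.15-fold). None of these ratios separated the groups. For Ciita, counting error is part of that range. Its lowest ratio was in AAV8-Null replicate 2, where Cd74 was at 54.7 CPM.

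**Figure D3:**
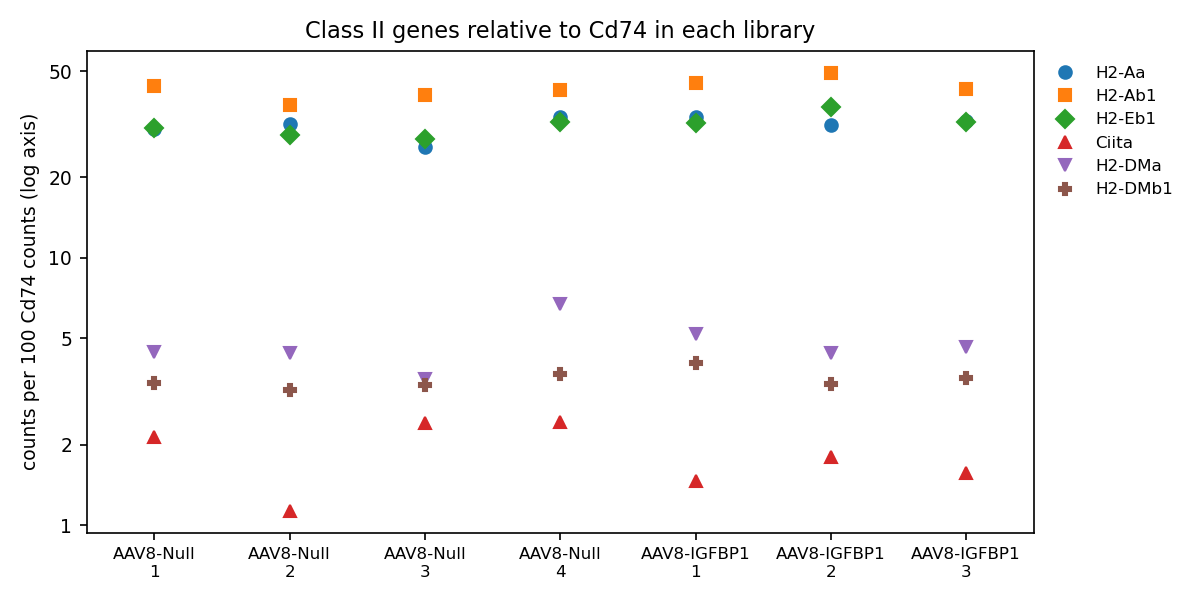
Counts of each class II gene per 100 Cd74 counts (vertical log axis) in each of the 7 libraries. The chains H2-Aa, H2-Ab1 and H2-Eb1 stay within 1.29-fold to 1.32-fold across libraries, and Ciita spans 2.15-fold.

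As a description, Pearson's r of log2 CPM over the 7 libraries was 0.802 to 0.992 for the 15 pairs without Ciita (Spearman's rho 0.643 to 1) and 0.446 to 0.697 for the 6 pairs with it (rho 0 to 0.357). Without AAV8-IGFBP1 replicate 2 the pairs without Ciita had r from 0.462 to 0.973 and the pairs with Ciita from -0.483 to -0.0597. All these values share the same libraries and scaling. Outside the 7, the genes whose log2 CPM was most like the mean of the members were Stxbp2 (r = 0.998), Cp (0.984), Lcp2 (0.982), Coro1a (0.979) and Dock2 (0.976), of 14928 genes compared. Lcp2, Coro1a and Dock2 are known as genes of blood-derived immune cells. With 7 libraries, 0.744% of the genes had an r above 0.9, and without AAV8-IGFBP1 replicate 2 these 5 had r from 0.891 (Coro1a) to 0.993 (Stxbp2). Ciita was most like Jak3, a kinase gene of cytokine receptors in lymphocytes (r = 0.994, and 0.988 without that library). For each member alone the best match ranged from Pirb for Cd74 (r = 0.977) to Cp for H2-Ab1 (r = 0.998). H2-Aa was most like Chl1 (r = 0.997) and H2-DMa most like Vsir (r = 0.989).

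Upstream of Ciita, the receptor gene Ifngr2 rose. Ifngr2 encodes the signalling chain of the interferon gamma receptor and lay at 62.7, 66.4, 63.4 and 67.0 CPM in AAV8-Null and at 106.5, 96.4 and 100.7 CPM in AAV8-IGFBP1. Every AAV8-IGFBP1 library was above every control, as for 6.33% of all genes, and AAV8-IGFBP1 replicate 2 was the lowest of its group. The means were 64.9 ± 2.17 (SD, n = 4) and 101.2 ± 5.04 CPM (SD, n = 3), a log2 fold change of 0.64 (SE 0.057, adjusted p = 0.00618 in edgeR), with the second lowest p of all genes tested. Leaving out any 1 library left it past the test (log2 fold change 0.60 to 0.68, edgeR adjusted p 0.0079 to 0.0236). Of the 8 listed genes of interferon gamma signalling, 7 were tested, 1 rose and 0 fell. Among all genes tested, 0.362% were called higher and 0.194% lower. Ifngr1, which encodes the ligand-binding chain, had a log2 fold change estimate of 0.18 (adjusted p = 0.615 in edgeR). Socs1, a feedback inhibitor, had -1.71 (adjusted p = 0.597 in edgeR) and lay at 6.98 CPM in AAV8-Null replicate 2 against 0.316 to 1.93 CPM in the other 6, and without that control the value was -0.35. Ifng itself had 0 to 2 counts per library and was not tested.

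Among the factors that bind class II promoters, Rfx5 came close to the threshold. Rfx5 encodes a DNA-binding subunit of the RFX complex, whose X core is capitalised in the promoters of H2-Eb1 and H2-DMb1, and lay at 5.36, 6.76, 6.28 and 5.94 CPM in AAV8-Null and at 8.42, 9.02 and 8.77 CPM in AAV8-IGFBP1, with no overlap. The log2 fold change was 0.52 (SE 0.10, adjusted p = 0.0635 in edgeR), 0.50 without AAV8-IGFBP1 replicate 2, and DESeq2 called it (adjusted p = 0.00344), where DESeq2 called 2.91% of genes. Rfxank, another RFX subunit gene, had 0.28 (adjusted p = 0.340 in edgeR) and also did not overlap, and Rfxap, the remaining subunit, had 0.12 (adjusted p = 0.645 in edgeR). Nfya, a subunit gene of NF-Y, had -0.29 (adjusted p = 0.432 in edgeR). Of the 7 listed factors 7 were tested, 0 passed edgeR's test, and 2 had an unadjusted p under 0.05, as did 12.6% of all genes. The groups did not overlap for those 2, Rfx5 and Rfxank, as for 12.3% of all genes.

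The genes that process antigen for loading showed small differences. Of 9 endosomal protease, protease inhibitor and reductase genes 9 were tested and 0 passed, with a median log2 fold change of 0.06. Ctss, which encodes cathepsin S, the protease that trims the invariant chain in immune cells, lay at 3.85, 5.22, 6.07 and 3.97 CPM in AAV8-Null and at 6.69, 7.42 and 3.48 CPM in AAV8-IGFBP1 (log2 fold change 0.30, adjusted p = 0.722 in edgeR, and 0.09 without AAV8-IGFBP1 replicate 2). Cst3, a cathepsin inhibitor gene, had 0.18 (adjusted p = 0.399 in edgeR), Ctsl 0.11 (0.662) and Ctsh -0.25 (0.636). Of 8 genes for surface turnover and costimulation 7 were tested and 0 passed, with a median of -0.03. Cd83, whose product holds class II at the surface of dendritic cells, had -1.13 (SE 0.66, adjusted p = 0.544 in edgeR), and Icosl, a costimulatory ligand gene, -0.40 (0.498). Cd83 lay at 3.81 CPM in AAV8-Null replicate 2 against 0.462 to 1.57 CPM in the other libraries. Without that control its log2 fold change was -0.43. Cd40 had 0.49 (0.752) and Lag3, a receptor gene for class II, 0.39 (0.789), and without AAV8-IGFBP1 replicate 2 they had 0.05 and -0.11. H2-Oa and H2-Ob, which encode the DO heterodimer that restrains DM, had 0 to 5 and 4 to 18 counts and H2-Eb2 0 to 4, too few to be tested. Over all 37 other pathway genes, 30 were tested, 1 rose and 0 fell, 19 lay above 0 and the median was 0.05. Among all genes tested, 0.362% were called higher, 0.194% were called lower and 49.9% lay above 0.

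**Figure D4:**
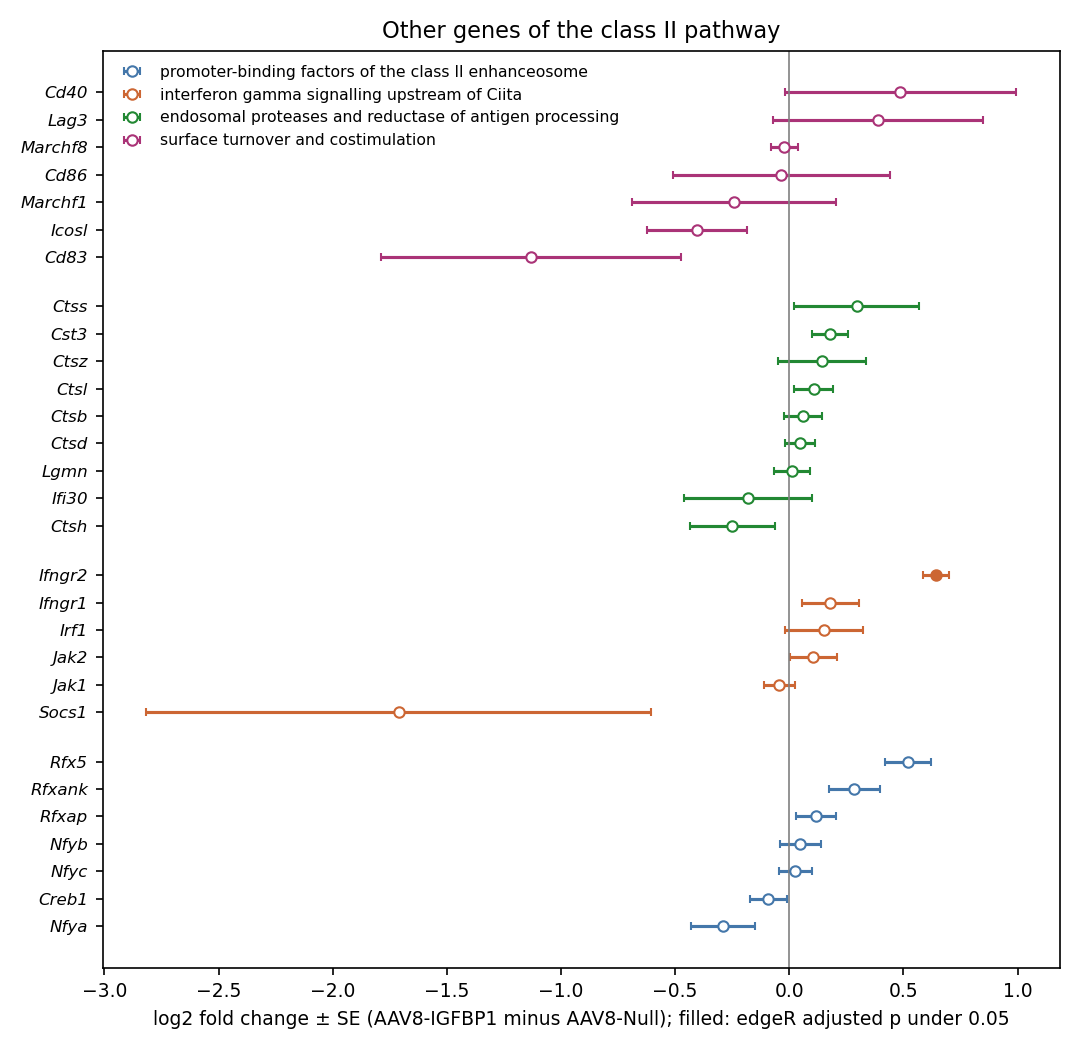
Log2 fold change with its SE (horizontal axis) of tested genes of the class II pathway outside the 7 members, grouped by role, with filled points for an edgeR adjusted p under 0.05. Ifngr2 at 0.64 is the 1 filled point, and Rfx5 at 0.52 is open.

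MHC class I genes, which present peptides made inside the cell and answer to the related coactivator NLRC5, had a like direction but another order among the controls. Of 11 listed class I and peptide transport genes 11 were tested, 11 lay above 0 and 0 passed, with a median log2 fold change of 0.69. Of all genes tested, 49.9% lay above 0 and 0.556% passed. The groups did not overlap for 2 of the 11, where they did not for 12.3% of all genes. Nlrc5 had 1.02 (SE 0.40, adjusted p = 0.347 in edgeR), H2-T23 0.65 (0.179), Psmb8 0.77 (0.403) and H2-D1 0.69 (0.439). Without AAV8-IGFBP1 replicate 2 these were 0.43 for Nlrc5, 0.40 for H2-T23, 0.20 for Psmb8 and 0.21 for H2-D1. Summed over each list, class I lay at 602.0 CPM and class II at 186.5 CPM in AAV8-IGFBP1 replicate 2, against 245.1 to 314.2 and 68.8 to 113.0 CPM in the other 6 libraries. AAV8-Null replicate 2 was the highest control for class II (1.29 times the control mean) and at 0.991 times the control mean for class I. The difference between the 2 lists was not tested.

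Markers of the cells that carry class II were measured in the same libraries. Across all genes tested, 49.9% lay above 0 and 0.556% were called in either direction. All 7 general leukocyte markers lay above 0 on the log2 scale (median 0.41) with 0 called, and summed to 12.4 to 19.0 CPM in AAV8-Null and to 18.7, 28.4 and 13.9 CPM in AAV8-IGFBP1 replicates 1, 2 and 3. Of the 11 macrophage markers 9 lay below 0 (median -0.18, 0 called), with sums of 55.7 to 93.7 CPM in AAV8-Null and 43.1 to 79.0 CPM in AAV8-IGFBP1, and none was at 0 throughout. C1qa, a complement gene of resident macrophages, had a log2 fold change of -0.18 and Csf1r, the macrophage growth factor receptor gene, -0.36 (adjusted p = 0.890 and 0.423 in edgeR). The 9 dendritic cell markers summed to 6.74 to 10.9 CPM in AAV8-Null and 6.45 to 9.19 CPM in AAV8-IGFBP1. Most of this sum was 1 gene, Zbtb46 at 4.38 to 8.25 CPM, so the sum says little about the others. Which cells held the Zbtb46 RNA was not tested, so neither value measures dendritic cells by itself. Of the 9 markers 5 were tested, 0 passed, 3 lay below 0 and the median was -0.28. Zbtb46 had -0.28, Cd209a -0.53 and Siglech -0.62, while Itgax and Batf3 had 1.69 and 1.598 (adjusted p = 0.249 and 0.307 in edgeR). Itgax, which encodes CD11c, had 5, 13, 15 and 8 counts in AAV8-Null and 19, 57 and 21 in AAV8-IGFBP1. Batf3 had only 4, 5, 9 and 1 counts in AAV8-Null and 11, 19 and 13 in AAV8-IGFBP1. Both were highest in AAV8-IGFBP1 replicate 2. Flt3, Xcr1 and Clec9a stayed at 0 to 14 counts in every library. The B cell list summed to 73.3 to 135.7 CPM in AAV8-Null and 105.9 to 256.5 CPM in AAV8-IGFBP1, and the T cell list to 2.15 to 3.31 and 4.16 to 6.41 CPM, each with 1 of 7 genes tested and 0 called. Nearly all of the B cell sum was 1 gene, Ighm at 72.6 to 256.1 CPM. Most of the T cell sum was Cd28 at 1.93 to 4.62 CPM, with 4.62 of 6.41 CPM in AAV8-IGFBP1 replicate 2. The B cell and T cell sums thus say little about the other genes of their lists. The 7 adipocyte markers all lay above 0 (median 1.06, 0 called), and AAV8-IGFBP1 replicate 2 held 3.85 times their control mean. The part of these cell contents in the class II values was not tested.

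**Figure D5:**
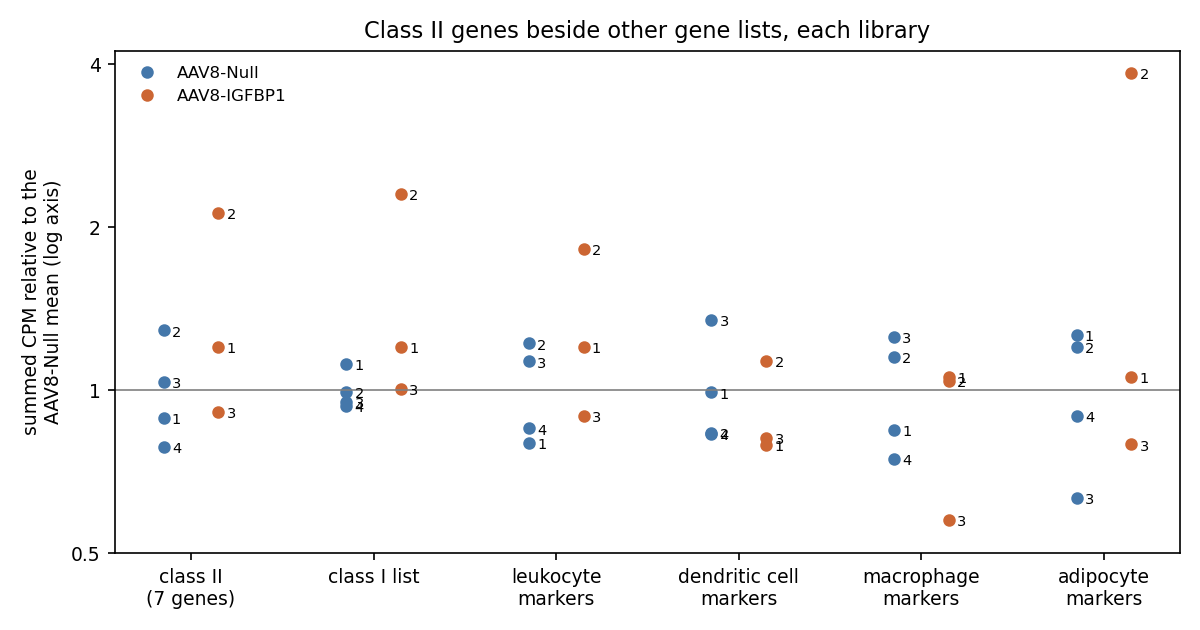
Summed CPM of the 7 class II genes and of 5 other lists, relative to each list's AAV8-Null mean (vertical log axis), with a point per library numbered by replicate. AAV8-IGFBP1 replicate 2 lies at 2.13 for class II, 2.30 for class I, 1.83 for leukocyte markers and 3.85 for adipocyte markers, but at 1.04 for macrophage markers.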

How the data were processed

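RNA from quadriceps was sequenced in 7 libraries, 4 AAV8-Null and 3 AAV8-IGFBP1, grouped by their titles. The authors deposited estimated counts per gene symbol for 53819 genes. Tools named per the submitters' processing notes, without their roles, are Salmon 1.10.1, STAR 2.7.9a, R 4.2.2, Trim Galore 0.6.7 and cutadapt 3.4, with the GRCm39 build. Annotation release and strand setting are not given in the sources used here.

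Counts were rounded and tested with edgeR 4.0.16 in R 4.3.3 (filterByExpr with minimum count 10 and minimum total 15, TMM scaling, glmQLFit with robust TRUE, group alone), with Benjamini-Hochberg adjustment over 14935 genes and a threshold of 0.05. All 7 members passed the filter. Standard errors are approximate, the log2 fold change over the square root of F. log2 CPM used a prior count of 2, and the limit for a gene at 0 is 3 counts. No molecular identifiers are recorded, so reads are not independent molecules, and intervals and limits describe counting error alone. Lengths for CPM per kilobase are medians over protein-coding GENCODE vM21 basic transcripts. A chi-square test of each pair of libraries in a group gave 20.4 to 54.6 per degree of freedom, so every library was kept as its own replicate. DESeq2 1.42.0, limma-voom (limma 3.58.1), other scalings and filters, robust FALSE, a replicate block and leaving out each library were tried. The edgeR step was tested on simulated data.

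The members and lists were chosen with earlier results of these data known. Named are the 7 members, up to 4 genes per pathway list with the lowest p, Igfbp1, and the genes most like the members. Other genes, such as Ifng, H2-Ea, H2-Oa, H2-Ob, H2-Eb2 and the markers, are list members named after their values were seen. A result for a gene that the rule would name is not reported here.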

Additional observations from a re-analysis of the deposited data

Results flagged for a closer look

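Of 28 named genes, 3 had an AAV8-Null library far from the other 3 of its group by Dixon's 95% criterion, where chance flags about 1 in 20 groups. H2-Aa lay at 17.4 CPM in AAV8-Null replicate 2 against 10.5 to 11.6 CPM in the others. H2-D1 lay at 79.6 CPM in AAV8-Null replicate 1 against 65.7 to 66.5 CPM. For Igfbp1, AAV8-Null replicate 4 held 0.195 CPM and the others 0. With the others tied at 0, any value above 0 is flagged, so the chance rate does not apply to Igfbp1. Without AAV8-Null replicate 2 the log2 fold change of H2-Aa was 0.70 (adjusted p = 0.397 in edgeR).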

How the results depend on the processing

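The count of 0 members past the test held in all 16 alternatives. The members' median log2 fold change of 0.50 lay between 0.39 and 0.51 with other tests, scalings, filters and the block, and between 0.13 and 0.73 with a library left out, lowest without AAV8-IGFBP1 replicate 2. Ciita ran from -0.33 to 0.43 and Lag3 from -0.11 to 0.67 with a library left out, and both were below 0 only without AAV8-IGFBP1 replicate 2. The 83 genes called over the whole table became 439 with DESeq2, 306 with no count filter, and 19 to 86 with a library left out (19 and 52 when replicate 1 or 3 of AAV8-Null was removed, 28 and 23 when replicate 1 or 2 of AAV8-IGFBP1 was). With the replicate number as a block the count was 19, the members' median 0.39, and Ifngr2 missed the threshold (log2 fold change 0.66, adjusted p = 0.064 in edgeR). The samples share only a number: deviations of same-numbered libraries correlated at -0.0984, 0.0682 and -0.0574. No AAV8-IGFBP1 library correlated best with the control of its own number. Of the controls that share a number, only AAV8-Null replicate 2 correlated best with its same-numbered library. H2-T23, Rfx5 and Igfbp1 passed the test under at least 1 alternative (lowest adjusted p 0.0368, 0.00344 and 0.014, highest 0.463, 0.214 and 0.401). The stricter count filter removed Ciita. The sum of H2-DMb1 and H2-DMb2 was an alternative added after the data were seen. Ciita, H2-DMa and H2-DMb1, at 26 to 149 counts per library, are the members whose precision counting limits most.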

Other observations

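B cells, which also carry class II, left few counts apart from Ighm. Cd79a, Cd79b, Ms4a1, Pax5 and Cd22 had 0 to 14 counts per library, too few to be tested. Ighm, the IgM heavy chain gene, had 3956, 6975, 3753 and 2983 counts in AAV8-Null and 11800, 4335 and 7542 counts in AAV8-IGFBP1 (log2 fold change 0.87, adjusted p = 0.401 in edgeR), and was highest in AAV8-IGFBP1 replicate 1 rather than in replicate 2, where the class II genes peaked.

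Of the 7 T cell genes listed, some had their highest counts in AAV8-IGFBP1 replicate 2 and others did not. Lck had 27 counts there against 0 to 4 in the other 6 libraries, Cd3e 15 against 0 to 3, Cd4 22 against 2 to 10 and Cd3g 7 against 0 to 1. Cd28 had 78 to 155 counts in AAV8-Null and 173 to 191 in AAV8-IGFBP1 (log2 fold change 0.72, adjusted p = 0.166 in edgeR), with the 191 in replicate 2. Cd3d had 2 counts in AAV8-IGFBP1 replicate 2 against 5 in AAV8-IGFBP1 replicate 3 and in AAV8-Null replicate 1, and Cd8a had 0 to 1 in every library. Of the lymph node genes listed, Glycam1 had 0 counts in all 7 libraries, and Madcam1 and Cr2 had 0 to 2. The others were detected, Ccl21a at 91 to 344 counts, Cxcl13 at 4 to 24 and Ccl19 at 3 to 11.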
